A study of Homo sapiens with 6 samples.

Results

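RBFOX2 is a sequence-specific RNA-binding protein that regulates alternative splicing and also contacts mature mRNAs, mainly through the hexamer UGCAUG. APOBEC1 is a cytidine deaminase that turns cytosine into uracil in RNA, preferentially where the preceding base is A or U. In INSCRIBE, the enzyme is fused to a nanobody that recognises an antibody, so that an antibody placed on an RNA-binding protein holds the deaminase near the RNAs of that protein and leaves C-to-U edits there.

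The sites described here are 26439 distinct edited positions (chromosome, coordinate and strand) that were listed in both RBFOX2-INSCRIBE long-read libraries and in none of the 4 control libraries, out of 635496 distinct positions in the 6 libraries. They are called recurrent RBFOX2-only sites below. All libraries came from methanol-fixed HEK293T cells, an immortalised human embryonic kidney line (HEK293XT in the cell line label), and were made from rRNA-depleted RNA with full-length PacBio sequencing. RBFOX2-INSCRIBE cells (replicates 1 and 2) received a rabbit anti-RBFOX2 antibody followed by the APOBEC1-nanobody fusion, APO1-Nb. Enzyme-only cells (replicates 2 and 3 by their titles) received APO1-Nb without the antibody, and buffer-only cells (replicates 1 and 2) received neither. The data represent 1 cell line with 2 libraries a group. The study's methods describe replicates as separate slides or wells of cells and elsewhere call them technical, and p-values measure only the spread between these libraries.

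Members were chosen by whether a position was listed in each library, and the counts that follow from it are descriptions without a test. Recurrent RBFOX2-only sites made up 4.16% of all positions in the series. The mirror sets, listed in both libraries of a control group and nowhere else, held 4760 enzyme-only positions (0.749%) and 2285 buffer-only positions (0.36%). The libraries differed in how many positions they listed. The RBFOX2-INSCRIBE libraries listed 208163 and 213167, the enzyme-only libraries 90829 and 160570, and the buffer-only libraries 79409 and 77937. Members were 12.7% and 12.4% of the positions in RBFOX2-INSCRIBE replicates 1 and 2. The tables give no read numbers, so depth was unknown, and absence from a control library says only that no edit passed the caller there. Fewer listed positions in a control and weaker editing at a member cannot be told apart.

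Among positions listed in exactly 2 libraries, the RBFOX2-INSCRIBE pair shared the most. Pairs of 1 RBFOX2-INSCRIBE and 1 enzyme-only library shared 6344 to 14278 positions, with the larger numbers for enzyme-only replicate 3, and pairs of 1 RBFOX2-INSCRIBE and 1 buffer-only library shared 4101 to 4324. Just outside the rule lay 16090 positions listed in both RBFOX2-INSCRIBE libraries and in 1 enzyme-only library, 3488 listed in both and in 1 buffer-only library, and 246765 listed in 1 RBFOX2-INSCRIBE library alone. No position was listed in both RBFOX2-INSCRIBE and both enzyme-only libraries. Per the study's methods, edits found across all samples had been removed as putative variants. No position was listed in all 6 libraries either, while 1378 were listed in 5. Any edit shared by all 4 libraries with enzyme is thus missing from every count here.

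**Figure D1:**
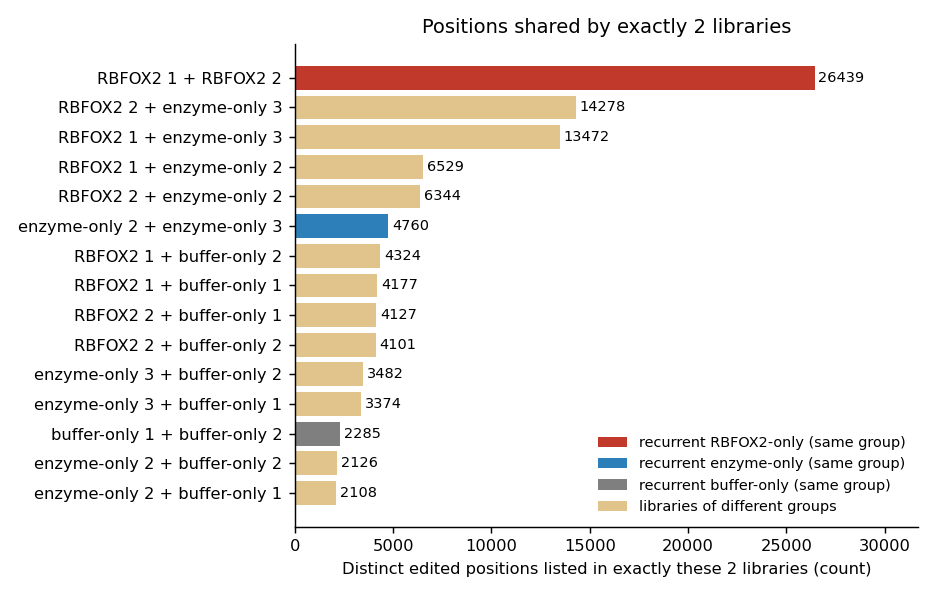
Bars give the number of distinct edited positions listed in exactly 2 of the 6 libraries (x axis, count), 1 bar for each pair of libraries, named by group and replicate. The pair of RBFOX2-INSCRIBE libraries (red) shared 26439 positions, above the 14278 of the next pair, and the enzyme-only (blue) and buffer-only (dark grey) pairs shared 4760 and 2285.

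The sequences below show what the sites look like at UGCAUG, in genes named by density or by number of sites near the motif and, for the last 5, by list membership or edit fraction. Each is 30 bases of the spliced isoform, 5′ to 3′, in DNA letters from the hg38 transcript annotation. Capitals mark TGCATG and every recurrent RBFOX2-only C in the stretch, and all other cytosines are in lower case. Each stretch was placed to hold the most members around a motif, so their number in it is not a result. All 10 lie in 3′ UTRs except NKTR, which lies in a retained-intron transcript. The positions are PPM1B chr2:44232988-44233017 (plus strand), POLR1F chr7:19695695-19695724 (minus), NRAS chr1:114707364-114707393 (minus), HACD2 chr3:123492865-123492894 (minus), TSC22D2 chr3:150459675-150459704 (plus), TARDBP chr1:11022973-11023002 (plus), LDHA chr11:18407333-18407362 (plus), EIF2S3 chrX:24077596-24077625 (plus), POLK chr5:75601033-75601062 (plus) and NKTR chr3:42619819-42619848 (plus).
PPM1B: TGCATGtatCtactgCatCcttCaaCtCtC
POLR1F: ctaaatgTGCATGcttCataaCCataattC
NRAS: CtCaaaaatCCttaTGCATGaaatgaatgt
HACD2: ggaaagatttttTGCATGaCttttCtctCa
TSC22D2: TGCATGacctataatCtttgaaCcactttC
TARDBP: gtgaattCttTGCATGttcaaaacggaaaC
LDHA: gtggaggttgTGCATGttgtCctttttatC
EIF2S3: atttTGCATGaaaaggaaatgaatggattC
POLK: ttgggtggtgatTGCATGgatgttcaCttt
NKTR: ctaatgCTGCATGaaaatactttatttgca

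In these stretches most members lay downstream of the hexamer, and its own C was a member only in EIF2S3. PPM1B, a protein phosphatase, carried 7 members within 30 bases, at 9 to 29 nt from the first base of the motif. Their edit fraction, the share of reads with the edit at that position in an isoform, was 0.503% to 4.02% in replicate 1 and 0.394% to 2.76% in replicate 2. In NRAS, the small GTPase of the MAPK pathway, the 4 members lay 4 to 14 nt upstream, at 0.317% to 0.635% and 0.263% to 0.264%. The EIF2S3 motif cytosine was edited at 0.216% and 0.198%, below the 1.08% and 1.18% of the member 25 nt from the motif start.

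Annotation placed 26145 of the 26439 sites (98.9%) in an exon of the isoform they were listed with, on its strand. Another 245 (0.927%) lay on the strand opposite to that isoform, 19 lay outside its exons and 30 had an isoform that was not matched to the annotation. The antisense share was 2.9% in the enzyme-only and 9.41% in the buffer-only mirror set. Protein-coding isoforms held 25068 of the sense sites (95.9%), retained-intron transcripts 473 (1.81%), lncRNAs 223 and transcripts subject to nonsense-mediated decay 221.

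Within protein-coding isoforms, members lay mostly in 3′ UTRs. The 3′ UTR held 18675 of 25068 sites (74.5%), the coding sequence 6068 (24.2%) and the 5′ UTR 325 (1.3%). Of all cytosines of the same isoforms, weighted by their number of sites, 51.4% lay in the 3′ UTR, 40.6% in the coding sequence and 7.97% in the 5′ UTR, so the ratios of sites to cytosines were 1.45, 0.596 and 0.163. The enzyme-only mirror set was closer to its cytosines (52.2% against 46.9% for the 3′ UTR), and the buffer-only mirror set lay below them (40.2% against 45.2%). Positions in 1 RBFOX2-INSCRIBE library alone lay between, with 57.4% in 3′ UTRs. Positions in both RBFOX2-INSCRIBE libraries and 1 enzyme-only library had 77.9% there (ratio 1.46), so the 3′ UTR excess was not particular to the members. Those in both and in 1 buffer-only library had 63.5% (ratio 1.25). In the 3′ UTR, members lay a median of 932 nt after the stop codon and 1242 nt before the transcript end.

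Along the isoform the ratio rose through the coding sequence, from 0.307 in the first to 0.940 in the last of 10 equal bins. It was highest in the first of 10 bins of the 3′ UTR (1.82) and was 1.14 in the last. Coverage by reads along the isoform could not be read from the tables, and its part in this profile was not tested.

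**Figure D2:**
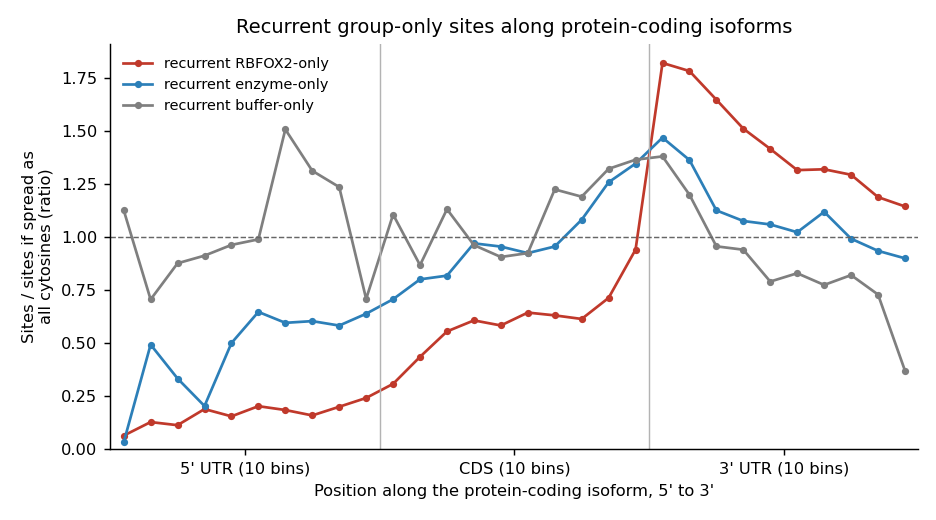
Ratio of sites to the number given by spreading the sites of each protein-coding isoform evenly over its cytosines (y axis), in 10 equal bins each of the 5′ UTR, coding sequence and 3′ UTR (x axis), for recurrent RBFOX2-only (red), enzyme-only (blue) and buffer-only (grey) sites. The dashed line marks a ratio of 1. The red line lies below 0.25 across the 5′ UTR, crosses 1 at the stop codon and falls from 1.82 to 1.14 along the 3′ UTR.

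The motif was not used to choose the sites. UGCAUG on the edited strand began within 50 nt of 2219 of the 26145 sense sites (8.49%) along the spliced isoform, against 3.86% of all cytosines of the same exons, a ratio of 2.20. The enzyme-only mirror set had UGCAUG near 93 of 4609 sites (2.02% against 2.35% of cytosines, a ratio of 0.860), and the buffer-only mirror set had it near 42 of 2063 (2.04%, a ratio of 0.946). Sites just outside the rule lay between the members and the mirror sets. The ratio was 1.31 for positions in 1 RBFOX2-INSCRIBE library alone, 1.70 for those shared with 1 enzyme-only library and 1.75 for those shared with 1 buffer-only library. The ratio of the members was 2.40 within 25 nt, 1.82 within 100 nt and 1.54 within 200 nt.

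Single libraries gave the replicate spread for this measure. For each library, the sites listed in it and in no library of the other groups were taken, whether or not its replicate listed them. UGCAUG was within 50 nt of 4.67% and 4.70% of them in RBFOX2-INSCRIBE replicates 1 and 2, of 2.08% and 2.22% in enzyme-only replicates 2 and 3, and of 2.33% and 2.23% in buffer-only replicates 1 and 2. Both RBFOX2-INSCRIBE values (4.69% ± 0.0232, SD, n = 2) lay above every control value. The difference was 2.54 percentage points from enzyme-only (2.15% ± 0.0985, n = 2) and 2.41 from buffer-only (2.28% ± 0.0770, n = 2). With 2 libraries against 2, the two-sided exact permutation test gave p = 0.33 for each, which is the smallest value it can give and cannot pass a threshold of 0.05.

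Related words were less marked. GCAUG, which every UGCAUG contains, was within 50 nt of 14.9% of members against 9.52% of cytosines (ratio 1.56). Among other pentamers, GUAUG had a ratio of 1.28, GUUUG 1.10, GAAUG 1.06, GUGUG 0.969, GCUUG 0.965, GCACG 0.813 and GCCUG 0.717.

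Sites were not placed evenly on the 2 sides of the hexamer. On the 5′ side, 956 members lay 1 to 50 nt before UGCAUG, 1.91 times the number given by spreading each exon's members over its cytosines, and on the 3′ side 1245 lay up to 45 nt after it, a ratio of 2.77. The highest stretch was 6 to 15 nt after the motif, with 436 members against 104 (ratio 4.19). The 1 to 5 nt right after it had a ratio of 1.41. On the 5′ side the ratio was 2.89 at 1 to 10 nt and 1.61 at 26 to 50 nt.

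At single positions, the 2 highest ratios lay 1 on each side of the hexamer and were near equal. The base just before UGCAUG was a member 77 times against 14.1 (ratio 5.47), and the base 13 nt after its first base 58 times against 10.6 (ratio 5.45). The C inside UGCAUG, which follows G, was a member 18 times against 59.5 (ratio 0.302), and a C right after it, which also follows G, 2 times against 11.3 (ratio 0.178).

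**Figure D3:**
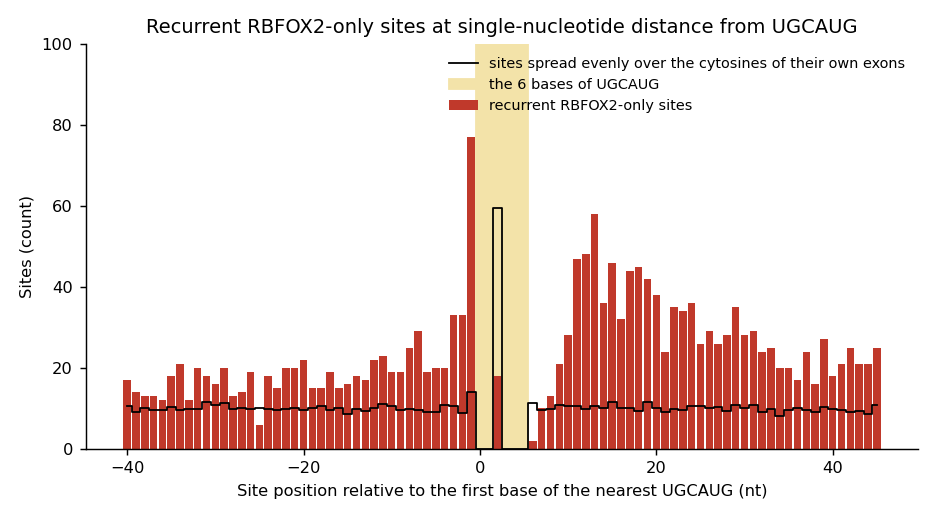
Red bars count recurrent RBFOX2-only sites at each position relative to the first base of the nearest UGCAUG (x axis, nt). The black line gives the count from spreading the sites of each exon evenly over its cytosines, and the shaded band covers the 6 bases of the motif. The bars peak at 77 just before the motif, fall to 18 against 59.5 at its own C and stay above the line from 8 nt to beyond 40 nt after its start.

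The base before the edited C bears on these ratios. A preceded 52.1% of members against 26.8% of all cytosines, U preceded 37.0%, G 7.85% and C 3.03%. ACU was the most frequent triplet (24% against 9.53%), followed by ACA (19.5% against 10.2%), and CCC was at 0.432% against 4.82%. In the enzyme-only mirror set A preceded 40.6% of sites and G 20.9%, and in the buffer-only mirror set G preceded 51.7% and A 11.3%. Restricted to cytosines that follow A or U, an alternative added after the data were seen, 2036 of 23300 members (8.74%) had UGCAUG within 50 nt, against 3.80% of such cytosines (ratio 2.30). The side difference stood there too, with ratios of 1.87 on the 5′ side and 2.80 on the 3′ side. The enzyme-only ratio was 0.821 and the buffer-only ratio 1.02 under the same restriction.

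**Figure D4:**
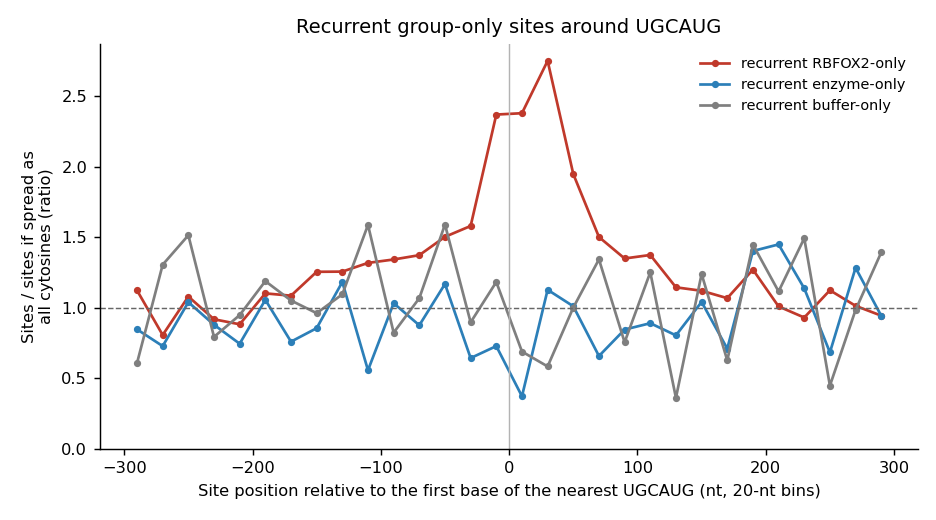
Ratio of sites to the number given by spreading them over all cytosines of their exons (y axis), in 20-nt bins of distance from the first base of the nearest UGCAUG (x axis, negative values upstream), for the recurrent sites of each group. The RBFOX2-only line (red) reaches 2.75 at 20 to 39 nt and falls towards 1 on both sides. It is still 1.26 at -160 to -141 nt and 1.27 at 180 to 199 nt. The enzyme-only (blue) and buffer-only (grey) lines, which rest on fewer sites, have no peak at the motif.

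The ratio at UGCAUG differed between transcript regions. In 3′ UTRs 1759 of 18675 members (9.42%) had the hexamer within 50 nt, against 4.01% of the 3′ UTR cytosines of the same exons (ratio 2.35), and in coding sequence 328 of 6068 (5.41%) did, against 4.16% (ratio 1.30). Retained-intron transcripts had 60 of 473 (12.7%, ratio 2.72) and lncRNAs 24 of 223 (10.8%, ratio 3.41). The 5′ UTR had 4 of 325. In the enzyme-only mirror set the 3′ UTR ratio was 0.729 and the coding ratio 1.09. In the buffer-only mirror set they were 0.702 and 1.33, the coding ratio from 24 of 1022 sites. The coding ratio of the members was thus not above that of both controls.

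Seen from the motif, 1177 of the 9004 UGCAUG occurrences in the listed isoforms (13.1%) had at least 1 member for which they were the nearest within 50 nt. Of these, 558 had 2 or more members, 256 had 3 or more, 57 had 5 or more, and the most was 10. The enzyme-only mirror set touched 90 occurrences, 3 of them with 2 sites, and the buffer-only mirror set touched 42 with 1 site each. These sets hold fewer sites, which lowers such counts.

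Many members lay close to another member. Of the 26439 sites, 12386 (46.8%) had another member of the same gene within 50 nt. The share was 12.4% in the enzyme-only and 8.75% in the buffer-only mirror set, which are smaller, and fewer sites lower such a share. The share given by spreading sites over cytosines was not computed, so clustering beyond the number of sites was not tested. Joined at that distance, members formed 4555 clusters of 2 or more, 373 of 5 or more and 28 of 10 or more, and the largest cluster held 16. No mirror cluster had more than 4 sites. The share of sense members with UGCAUG within 50 nt was 4.71% for sites alone, 10.3% in clusters of 2 to 4, 21.5% in clusters of 5 to 9 and 32.4% in clusters of 10 or more. In the enzyme-only mirror set it was 1.99% for sites alone and 2.24% in clusters of 2 to 4.

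The edit fraction of members was low in both libraries. Its median was 0.535% in replicate 1 and 0.518% in replicate 2, with 5th and 95th percentiles of 0.0935% and 3.35% in replicate 1 and 0.0932% and 3.13% in replicate 2. The fractions of 18316 members (69.3%) lay within 2-fold of each other in the 2 libraries, and those of 891 were over 5-fold apart. Across members, which share libraries and depth and are not independent, Spearman's rho was 0.757 and Pearson's r of the log10 fractions 0.770. Only 1586 members reached 2% in both libraries and 31 reached 10% in both. Apart from 2 members over 80% in both, the highest mean was at a 3′ UTR site of VTA1, with 100% in replicate 1 and 6.25% in replicate 2, and the next at NDUFS1, with 40% and 50%. Without read numbers, such values cannot be placed between strong editing and few reads.

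Positions just outside the rule that both RBFOX2-INSCRIBE libraries listed had lower fractions. Their medians were 0.362% and 0.352% for those shared with 1 enzyme-only library, and 0.227% and 0.228% for those shared with 1 buffer-only library. Positions in 1 RBFOX2-INSCRIBE library alone had higher medians, 0.939% in replicate 1 and 0.922% in replicate 2.

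Members near UGCAUG had higher fractions in both libraries. Their medians were 0.893% and 0.909%, against 0.515% and 0.495% for the other sense members. The medians were 1.04% and 0.980% at 11 to 20 nt from the motif start, 0.631% and 0.596% at 51 to 100 nt, and 0.5% and 0.480% beyond 200 nt or with no UGCAUG in the isoform. A fraction of 2% or more in both libraries was found for 18.1% of members at 11 to 20 nt and for 4.66% of those beyond 200 nt. Of the 1566 sense members at 2% or more in both, 346 (22.1%) had UGCAUG within 50 nt, a ratio of 4.77 to their exons' cytosines. In the enzyme-only mirror set the medians near the motif were 0.606% and 0.376%, against 0.518% and 0.405% elsewhere.

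By region, the medians of replicates 1 and 2 were 0.376% and 0.380% in coding sequence, 0.585% and 0.556% in 3′ UTRs, and 0.415% and 0.398% in 5′ UTRs. They were 1.08% and 1.12% in retained-intron transcripts and 1.16% and 1.06% in transcripts subject to nonsense-mediated decay. The enzyme-only mirror set also had higher medians in retained-intron transcripts (1.28% and 0.909%) than in coding sequence (0.394% and 0.326%).

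Recurrence itself went with the motif. Of the sense sites listed in RBFOX2-INSCRIBE replicate 1 and no control, 18.4% were listed again in replicate 2. That share was 33.5% with UGCAUG within 50 nt, 24.7% at 51 to 200 nt and 16.9% farther away. From replicate 2 to replicate 1 the shares were 32.2%, 24.1% and 16.4%. In enzyme-only replicate 2 the share listed again was 8.47% over all sites and 8.25% near UGCAUG, and in replicate 3 it was 4.95% and 4.52%. The buffer-only libraries gave 4.34% and 4.49% over all sites, and 3.79% and 4.12% near UGCAUG.

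Away from UGCAUG, recurrence fell with each higher class of edit fraction. In RBFOX2-INSCRIBE replicate 1, 41.1% of sites under 0.2% were found again near UGCAUG and 31.1% elsewhere, and of sites at 2% or more 24% and 7.63%. The share near UGCAUG lay above the share elsewhere in each of the 5 fraction classes of both RBFOX2-INSCRIBE libraries. A low fraction needs many reads to be seen, so the fraction classes also differ in depth, which the tables do not give.

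**Figure D5:**
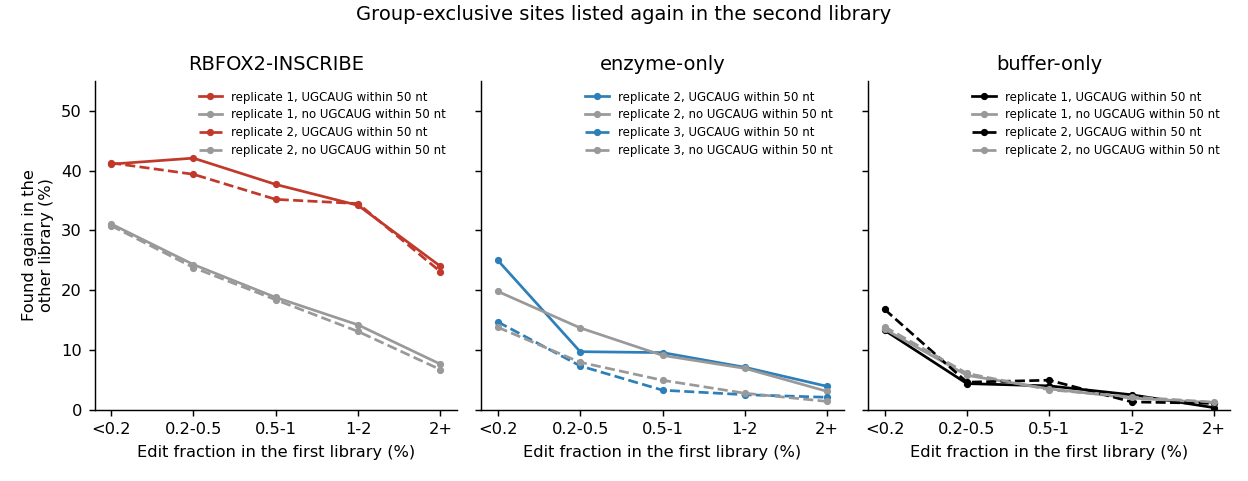
Share of group-exclusive sense sites of 1 library that its replicate also listed (y axis, %), by edit fraction in the first library (x axis, %), with UGCAUG within 50 nt (coloured or black lines) and without (light grey lines). Solid and dashed lines start from the lower- and higher-numbered replicate. In RBFOX2-INSCRIBE the line near UGCAUG runs from 41.1% to 24% in replicate 1, above the line from 31.1% to 7.63%, and in the controls the paired lines cross or lie close.

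Members came from 3425 of the 7682 genes listed in the series, 3376 of them protein-coding. The median gene with a member had 4, while 865 genes had 1 and 945 genes had 10 or more and held 69.9% of the sense members. Among the genes with the most were FEM1B, a substrate receptor of a ubiquitin ligase, and PAWR, a pro-apoptotic regulator, with 65 each, then IRS4 and RAB10 (55 each), UBE2K (52), SCAMP1 (51), NRAS (49), and IPO7 and MIB1 (48 each). In FEM1B and PAWR all 65 lay in the 3′ UTR of 1 isoform. FEM1B had 199 and 217 distinct sites with antibody and enzyme, 49 and 144 with the enzyme alone, and 40 and 47 with buffer. IRS4, an adaptor of insulin signalling, had 662 and 764, then 330 and 733, then 412 and 413, so its sites were many in every library and 1 enzyme-only library overlapped the RBFOX2-INSCRIBE pair. None of the 55 IRS4 members had UGCAUG within 50 nt, and their median fraction was 0.104%.

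Counts per gene may rise with transcript length and with depth, which was not tested. Members were therefore also set against the cytosines of the main isoform, which leaves depth unaccounted for. The genes given here were named for having the most members. The median was 4.85 members per 1000 cytosines. RAB10, a GTPase of membrane traffic, had 75.9, NRAS 63.7, UBE2K, a ubiquitin-conjugating enzyme, 63.4, FEM1B 48.1 and PAWR 41.3, while IRS4 had 13.2.

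The densest short windows were in 3′ UTRs. TSC22D2 had 12 members of 24 cytosines in 89 nt, and PPM1B 10 of 19 in 88 nt. FEM1B had 10 of 20 in 94 nt and NRAS 10 of 18 in 100 nt. MAEA, a subunit of a ubiquitin ligase, and SRGAP2C had 9 each, and GJA1 (connexin 43), CDH2 (N-cadherin), CAPRIN1 and HACD2 had 8 each. SRGAP2C has near-identical paralogs, so the assignment of its reads is uncertain. UGCAUG lay in or within 50 nt of each of these 10 windows. How often other 3′ UTR stretches of this length have UGCAUG so near was not computed, so this count has no background to be read against.

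Members are absent from the controls by choice. The windows also hold other sites, and all distinct sites, members included, were counted in each library. The TSC22D2 window had 16 and 15 in the RBFOX2-INSCRIBE libraries, 1 in each enzyme-only library and none in the buffer-only libraries. The MAEA window had 9 and 10, and the SRGAP2C window 9 and 9, with none in any control library. The CAPRIN1 window, in the mRNA of a stress-granule protein, had 18 and 14, then 3 and 6 in enzyme-only and 3 and 1 in buffer-only cells. In each of the 10 windows both RBFOX2-INSCRIBE libraries lay above all 4 controls. The rule for members and the choice of windows largely fix this order, so it is not a result.

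Edit fractions in these windows varied from site to site. In TSC22D2 the 12 members ranged from 0.467% to 8.89% in replicate 1 (median 3.49%) and from 0.5% to 4.88% in replicate 2 (median 1.64%). In FEM1B the 10 ranged from 0.188% to 1.54% (median 0.379%) and from 0.151% to 3.18% (median 0.385%). The highest MAEA member, 16 nt from the motif start, had 8.14% and 5.38%, and the HACD2 member highest in replicate 1, 12 nt from the motif start, had 3.62% and 0.955%. HACD2 is an enzyme of very long fatty acid synthesis.

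The genes with the most members near UGCAUG were FEM1B (15 of 65), PPM1B (13 of 48), CAPRIN1 (12 of 43), GJA1 (12 of 17), MATR3 (11 of 28) and SCAMP1 (11 of 51), then IREB2, PAWR, PFN2 and POLR1F (10 each). The GJA1 isoform holds 4 occurrences of the hexamer. MATR3, a nuclear matrix RNA-binding protein, had 6 members of 11 cytosines in 64 nt, at 0.741% to 11.8% in replicate 1 and 0.442% to 7.14% in replicate 2. That window held 6 and 8 sites in replicates 1 and 2, the 6 members included, and none in the 4 controls. The POLR1F window, in the mRNA of a subunit of RNA polymerase I, had 12 and 12, then 0 and 2, then 2 and 1. In both windows the rule for members largely fixes this order, so it is not a result.

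Among the genes named for high fractions near UGCAUG, NKTR had the highest mean, with 20% and 40% at the base just before the hexamer in a retained-intron transcript, and its densest window held 4 members of 8 cytosines at 7.69% to 24% and 4.35% to 40%. All sites listed in that NKTR window, the 4 members included, numbered 6 and 4 in replicates 1 and 2 and none in the controls. The rule for members largely fixes this order too. ZNF805, a zinc-finger gene, had 16.7% and 40% at its only member, and POLK, a translesion DNA polymerase, had 14.3% and 20% at a site 14 nt from the motif start. UBR3 had 12.5% and 16.7%, and TRDMT1, with 33.3% and 5%, and CCP110, with 33.3% and 2%, differed over 5-fold between the libraries. PDP1, with 12.5% and 20%, PKIB, ELK4 and KIDINS220 were also in this group.

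Isoforms were mostly shared between the libraries. Of the members, 24998 (94.5%) were listed in at least 1 isoform common to both RBFOX2-INSCRIBE libraries and 1441 only in different isoforms. A single isoform held 23976, and 2463 were listed in 2 or more, up to 4. Members fell in 4100 isoforms, and 514 genes had members in 2 or more of them. DEPDC1, which encodes a cell-cycle protein, had 47 members in 3 isoforms, 19 of them in 1 isoform and 2 of the 47 near UGCAUG. DCUN1D4, a neddylation factor, had 9 in 2 isoforms, none near UGCAUG. APP, the amyloid precursor protein, had 33 in 3 isoforms, with 25 in the 3′ UTR and 2 near UGCAUG. The densest APP window held 8 members of 20 cytosines in 95 nt and no UGCAUG within 50 nt.

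Lists of genes were described by their counts beside all 7682 listed genes, of which 3425 had a member and 8.49% of the members were near UGCAUG. Of 42 listed splicing regulators, 36 had a member, with 548 members in all, a median of 10 a gene against 0 over all listed genes, and 9.31% near UGCAUG. Members were 14.1% and 13.7% of their sites in RBFOX2-INSCRIBE replicates 1 and 2, near the 13.0% and 12.7% over all listed genes. SRSF10 had 44, TARDBP, the RNA-binding protein TDP-43, 38, HNRNPU 37 and ELAVL1 (HuR) 34. In TARDBP 9 were near UGCAUG, in ELAVL1 4, and in SRSF10 and HNRNPU none. Of 15 listed genes with RBFOX-regulated exons, 11 had a member, with 90 in all and 11.1% near UGCAUG. Members were 15.6% and 14.6% of the sites of these genes in the 2 libraries. ENAH, an actin regulator, had 36, and 8 of these were near UGCAUG. One ENAH site 14 nt from the start of the motif had 3.33% and 3.30%.

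Among abundant mRNAs the counts differed widely. Of 76 listed cytosolic ribosomal protein genes, 16 had a member, with 27 in all and 1 near UGCAUG, while all sites listed in these genes numbered 793 and 508 in RBFOX2-INSCRIBE replicates 1 and 2, 1368 and 733 in enzyme-only replicates 2 and 3, and 510 and 613 in buffer-only replicates 1 and 2. Members were 3.40% and 5.31% of their RBFOX2-INSCRIBE sites, against 13.0% and 12.7% over all genes. Of 32 listed chaperones, 28 had a member, with 424 in all, a median of 14.5 a gene and 3.30% near UGCAUG. Translation factors (25 of 33 genes, 322 members) had 5.90% near UGCAUG, glycolysis enzymes (7 of 13 genes, 61 members) 6.56%, and the cytoskeleton list (15 of 26 genes, 118 members) 6.78%. Members were 12.3% and 12.6% of the RBFOX2-INSCRIBE sites of translation factors, also near the share over all genes. They were 8.79% and 11.4% for glycolysis enzymes, and 9.08% and 9.84% for the cytoskeleton list. Of the list of the amyloid precursor family and its processing, 4 of 9 genes had a member, and members were 15.7% and 16.1% of its RBFOX2-INSCRIBE sites. EEF2, the translocation factor of the ribosome, had 24 members with a median fraction of 0.0463%, and LDHA, lactate dehydrogenase A, had 20, of which 4 were near UGCAUG. KIF5B, a kinesin heavy chain, held 41 of the 118 cytoskeleton members.

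As a check of the labelled cell line, isoforms of SIX4, VIM and HOXA10, which are known to be active in HEK293T cells, had edits in the series. None of 8 markers of other cell types was listed.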

How the data were processed

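Edits came from 6 long-read libraries of HEK293T cells. Per the labels and the study's methods, the authors mapped full-length PacBio reads to hg38, assigned them uniquely to isoforms, called C-to-U changes, and removed known variants and edits found across all samples. The deposited tables give, for each isoform and position, the edit fraction (0 to 1, printed here as a percent) and no read numbers, so the depth per library is unknown and intervals cannot be given. The annotation release the authors used is not given in the sources used here.

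A site was a distinct chromosome, end coordinate and strand. For a site in several isoforms, the isoform with the highest mean fraction was used. Isoforms were placed with GENCODE release 44, which held 9831 of the 9892 listed. UGCAUG was searched on the edited strand of spliced isoforms (first base within 50 nt of the site) and set beside all cytosines of the same exons, each exon weighted by its sites. Clusters joined sites of a gene within 50 nt. The only test was a two-sided exact permutation test over libraries. Named genes were the 10 with the most sites, the 10 with the densest windows of 101 nt, the 10 with the highest fraction near UGCAUG (at most 80% in both libraries) and the 10 with the most sites near UGCAUG. To these were added APP, DEPDC1 and DCUN1D4, which are among the genes the study names, and up to 4 of each list. Some genes that met these rules are not reported here. No chromosome 8 sequence is printed. Members, lists and tests were chosen with earlier results of these data known. Alternatives varied the libraries, minimum fraction, window, cluster distance and isoform choice. Counting functions were tested on simulated isoforms. Python 3.11.15, numpy 2.4.6, pandas 2.3.3 and samtools 1.23.1 were used.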

Additional observations from a re-analysis of the deposited data

How the results depend on the processing

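Taking each library out of the rule in turn gave 28147 to 152145 sites, a UGCAUG share of 4.67% to 8.33% and a ratio to all cytosines of 1.49 to 2.18. The 3′ UTR share ran from 59.96% to 75.7%, the clustered share from 48.7% to 64.1% and the median fraction from 0.504% to 0.847%. The lowest motif and 3′ UTR values came without RBFOX2-INSCRIBE replicate 1 or 2, which drops the demand for recurrence (152145 and 147498 sites, ratios 1.53 and 1.49). Without enzyme-only replicate 3 there were 38172 sites. Demanding a fraction of at least 0.02 in both libraries left 1586 sites, with a UGCAUG share of 22.1%, a ratio of 4.77, 84.1% in 3′ UTRs, 18.7% clustered and a median of 3.66%. Absence from the buffer-only libraries alone gave 42529 sites. Windows of 25, 100 and 200 nt gave UGCAUG shares of 4.74%, 13.5% and 21.1% and ratios of 2.40, 1.82 and 1.54. With 1 site per cluster the UGCAUG share was 6.19% and the 3′ UTR share 70.0%. Cluster distances of 15 and 100 nt gave 22.0% and 62.6% clustered, the lowest fraction over isoforms gave a median of 0.551% (0.568% with the highest), and cytosines preceded by A or U, added after the data were seen, gave a ratio of 2.30. In each of these settings the UGCAUG ratio, where it was computed, was above 1. The difference in UGCAUG share of group-exclusive sites ran from 2.47 to 2.61 percentage points against enzyme-only and from 2.35 to 2.46 against buffer-only when 1 library was left out, and kept its sign under every window and at a fraction of at least 0.02. With the replicate block by title number, possible only against buffer-only, it was 2.41 with an exact p of 0.5, the smallest 2 pairs can give. The enzyme-only titles say 2 and 3 where the replicate label says 1 and 2. The block by that label, added after the data were seen, gave 2.54 against enzyme-only, also with an exact p of 0.5. Same-numbered libraries were not shown to be paired (r = 0.0373 across 5276 isoforms). What limits these results is the unknown depth and 2 libraries a group.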
